A study of Mus musculus with 8 samples.

Results

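The comparison described here sets KSL cells of Vav-Etv2 mice against KSL cells of control mice, 2 arrays against 2, chosen by their labels from the 8 arrays of the series. KSL cells are the Kit-positive, Sca-1-positive, lineage-negative cells of bone marrow. In Vav-Etv2 mice a transgene of Etv2 is switched on by Cre recombinase (Vav-iCre), whose Vav promoter works in blood cells at large and so is not limited to KSL cells. All mice were 6 weeks old and of mixed strain (B6/CBA and others), and the cells were sorted with no treatment afterwards. The labels do not give the strain make-up or the number of mice behind any single array, nor whether an array holds 1 animal or a pool. The p-values therefore measure only the spread between these samples, which may be technical. With the strain make-up unknown, strain and transgene cannot be told apart as sources of a difference. The other 4 arrays hold Gr-1-positive, Mac-1-positive cells (Gr cells) of the same genotypes, and they enter here through the shared estimate of the spread and where a KSL difference is set beside the difference in Gr cells.

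Etv2 is an ETS-family transcription factor of the early embryo, where it is needed for the precursors of blood and vessel lining and acts ahead of factors such as Tal1, Gata2, Lmo2 and Fli1. Endothelial genes that it turns on include receptors of vascular growth factors, junction proteins and further transcription factors. In adult marrow the KSL fraction holds the haematopoietic stem cells together with multipotent progenitors and the first progenitors with lymphoid bias, and quiescent stem cells within it are marked by genes such as Hlf, Hoxb5, Mecom and Procr.

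Levels are log2 signals relative to the array's 75th percentile, so that 0 is the signal at that percentile. That percentile lay between 195 and 266 signal units on the 4 KSL arrays, the share of probes well above background ran from 50.2% to 53.3%, and no probe was saturated. The number of arrays limits the precision. Transcripts of the sort markers were present on all 4 arrays. Kit, the stem cell factor receptor, read 5.14 and 5.15 in controls 1 and 2 and 3.45 and 4.32 in Vav-Etv2 arrays 1 and 2 (limma adjusted p = 0.469). Ly6a, which encodes Sca-1, read 3.65 and 3.59 in controls and 2.25 and 3.09 in Vav-Etv2 cells (adjusted p = 0.978). Both genes stood lower in both Vav-Etv2 arrays than in either control, without passing the test. Cd34 and Flt3, progenitor surface proteins, overlapped between the groups, with Cd34 between 7.13 and 7.39 and Flt3 between 5.42 and 6.04. Xist, the RNA of the inactive X chromosome, stood between 2.12 and 2.69 on all 4 KSL arrays, and the Y-linked Ddx3y was not well above background on any of them.

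Etv2 itself was the check of the labels, and 1 of the 8 arrays went against its label. The probe of Etv2 at chr7:31419633-31419692 (mm9, minus strand) read -4.37 and -4.73 in the controls, not well above background, and 0.18 and -1.24 in Vav-Etv2 arrays 1 and 2. The second Etv2 probe, at chr7:31418776-31418835, read -5.96 and -6.35 in the controls and 0.01 and -2.53 in the Vav-Etv2 arrays. Both probes thus detected Etv2 in both Vav-Etv2 arrays and in neither control, and both read higher in Vav-Etv2 array 1 than in array 2. The level was at least 12.4-fold higher than in controls (log2 difference 4.02, SE 1.19, n = 2 and 2), and limma's adjusted p of 0.460 did not pass the threshold of 0.05. In Gr cells the first probe read -4.48 in control 1, not well above background, and -0.54 in the array labelled Gr control 2, against -0.55 and -1.30 in the Gr Vav-Etv2 arrays. The second read -5.81, -0.85, -2.33 and -1.88 in the same order. The array labelled Gr control 2 thus held Etv2 signal at or above that of the Gr Vav-Etv2 arrays. Unless another setting is named, SE and adjusted p values come from limma's fit of all 8 arrays, this array included. Call counts and the overlap with Gr cells are given with and without it. Leaving out Gr control 1 or Gr control 2 gave the same KSL fit of Etv2 (log2 difference 4.02), so it cannot tell these arrays apart. With the KSL arrays alone limma's adjusted p of Etv2 was 0.188. The labels do not say whether the transgene holds the sequence of either probe.

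Over 23227 features (genes, gene models and immunoglobulin segments) limma called 1 higher (0.00431%) and 3 lower (0.0129%) at an adjusted p under 0.05. At an unadjusted p under 0.05 there were 1724 (7.42%), where chance gives 1161. With KSL Vav-Etv2 array 2 left out, limma called 14 features higher and 23 lower. It called 0 higher and 1 lower without Vav-Etv2 array 1 (837 at an unadjusted p under 0.05), 0 and 2 without KSL control 1 (936), and 0 and 0 without KSL control 2 (970). Without the array labelled Gr control 2 it called 2 higher and 9 lower, as it did without Gr control 1, the KSL arrays alone gave 1 and 4, and leaving out either Gr Vav-Etv2 array gave 2 and 3. An exact permutation test of 2 arrays against 2 cannot go below a two-sided p of 0.333. Because the Vav-Etv2 arrays differed from each other, each feature was also described by where its arrays lay. In 182 features (0.784%) both Vav-Etv2 arrays lay at least 1 log2 above both controls, and in 482 (2.08%) both lay at least 1 log2 below. These positions are a description and no test. A positive difference of the group means, of any size, was found in 50.3% of features. In a further 242 features (1.04%) Vav-Etv2 array 1 alone lay at least 2 log2 above both controls while array 2 stayed within 1 log2 of the control range, and in 227 (0.977%) array 1 alone lay as far below. The same rule for array 2 alone gave 19 features above (0.0818%) and 11 below (0.0474%). The SD over features of the difference between replicates was 0.556 log2 for the controls and 0.896 for the Vav-Etv2 arrays, and 645 features lay over 2 log2 apart between the Vav-Etv2 arrays, against 189 between the controls.

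**Figure D1:**
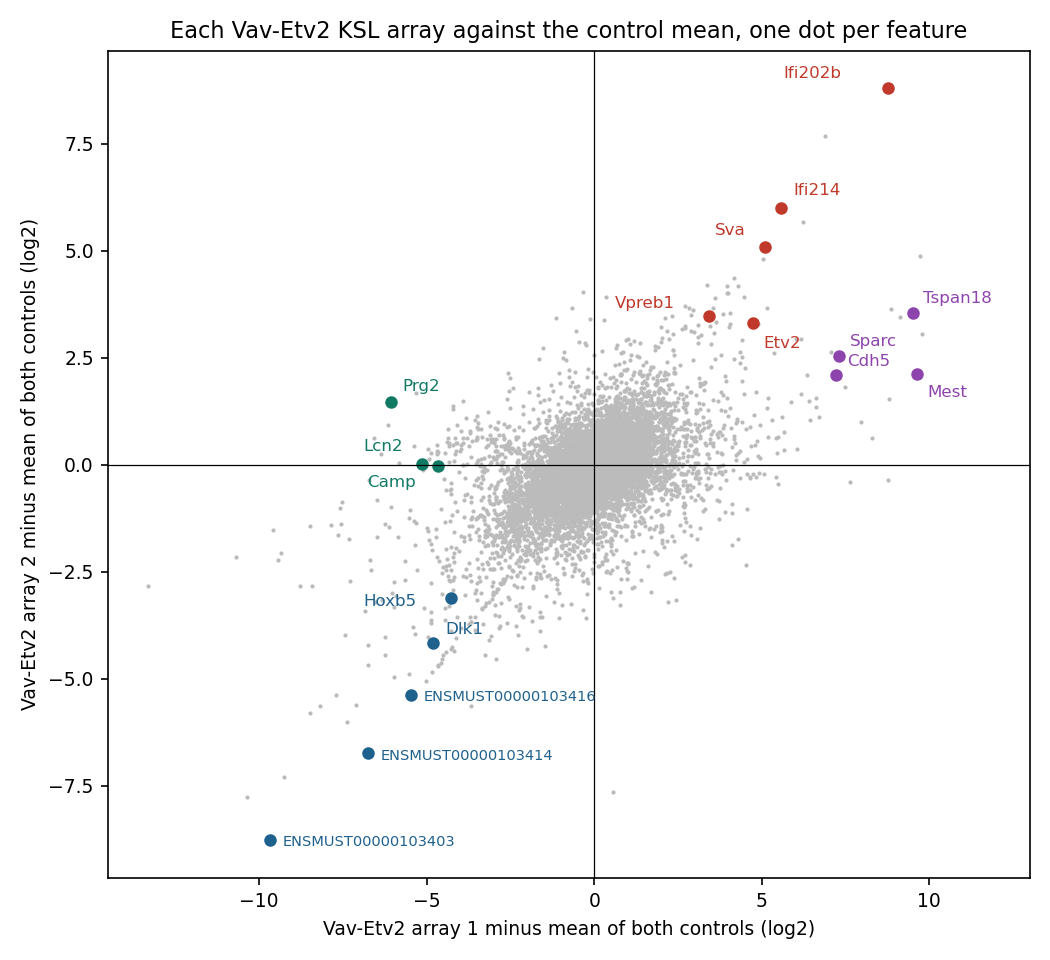
Each dot is 1 of 23227 features; the horizontal axis gives Vav-Etv2 KSL array 1 minus the mean of both control arrays and the vertical axis the same for array 2, both in log2, with named features coloured (red, high in both arrays; blue, low in both; purple, far higher in array 1; green, low in array 1 only). Ifi202b, at 2.38 and 2.41 against controls near -6, lies at the upper right, and Lcn2, at 1.74 in array 1 and 6.91 in array 2, lies level with the controls on the vertical axis.

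The 3 features that fell are immunoglobulin-region probes, and their sequences are shown because the region is full of similar gene segments. Each is printed 5′ to 3′ as on the array, with its longest run of bases shared with another probe of the lower immunoglobulin features in capitals.
ENSMUST00000103403: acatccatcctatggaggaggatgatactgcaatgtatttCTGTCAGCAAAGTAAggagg
ENSMUST00000103414: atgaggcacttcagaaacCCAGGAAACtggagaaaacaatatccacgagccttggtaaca
ENSMUST00000103416: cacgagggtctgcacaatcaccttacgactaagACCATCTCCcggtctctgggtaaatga
The first lies at chr6:70648995-70649054 (mm9, plus strand) in the kappa light chain region, the second at chr12:114509504-114509563 (minus strand) and the third at chr12:114525600-114525659 (minus strand), both in the heavy chain region. The longest shared runs were 15, 9 and 9 bases of 60, so none of these 3 probes shared a long exact run with another lower probe. Similarity broken up by mismatches was not measured.

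ENSMUST00000103403, a kappa segment, read 3.67 and 3.86 in the controls and -5.90 and -5.01 in the Vav-Etv2 arrays, where it was not well above background. The difference was -9.22 on the log2 scale (SE 0.59, limma adjusted p = 0.0116), a level at least 291-fold lower. ENSMUST00000103416, annotated in the files as the IgG2c constant region, read 4.50 and 4.37 in the controls and -1.02 and -0.94 in the Vav-Etv2 arrays. That is 42.7-fold lower (difference -5.42, SE 0.34, adjusted p = 0.0116), and the levels remained above background. ENSMUST00000103414 read 1.06 and 1.34 in the controls and -5.56 and -5.54 in the Vav-Etv2 arrays, at least 49.1-fold lower (difference -6.75, SE 0.27, adjusted p = 0.00131). The controls lay close together in all 3. The Vav-Etv2 arrays did so for ENSMUST00000103416, while for ENSMUST00000103403 and ENSMUST00000103414 neither of them was above background. The feature that rose was Sva, a secreted protein of the seminal vesicle (chr6:41992738-41992797), at -4.83 and -3.91 in the controls and 0.71 in both Vav-Etv2 arrays. That is 33.9-fold higher, or 25.2-fold with control 1, not well above background, at the floor (difference 5.08, SE 0.42, adjusted p = 0.0448). Without KSL control 2 all 4 calls were lost (adjusted p from 0.0652 to 0.145). Without KSL control 1, or without Vav-Etv2 array 1, the calls of ENSMUST00000103403 and ENSMUST00000103416 ended too (adjusted p from 0.140 to 0.177). The call of Sva ended when any 1 of the 8 arrays was left out (adjusted p from 0.0529 to 0.402).

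Among named genes that stood higher in both Vav-Etv2 arrays, the widest gap to the controls was that of Ifi202b, a member of the interferon-inducible Ifi200 family. It read -6.19 and -6.57 in the controls, not well above background, and 2.38 and 2.41 in the Vav-Etv2 arrays, at least 93.9-fold higher. Limma's adjusted p was 0.561 in the fit of all 8 arrays, where the Gr arrays of Vav-Etv2 mice stood far apart at 3.98 and -6.94, and 0.0415 with the KSL arrays alone. Its neighbour in the family Ifi214 read -5.10 and -4.69 in the controls and 0.68 and 1.10 in the Vav-Etv2 arrays, at least 33.1-fold higher (adjusted p = 0.0570, and from 0.00895 to 0.402 over the alternatives).

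The other genes on this side were of varied function, and none of those named here passed the test. Scn4b, a sodium channel subunit, read -3.76 and -3.91 in the controls and 0.12 and 0.33 in the Vav-Etv2 arrays (16.7-fold, adjusted p = 0.0756). Gfra2, a co-receptor for the growth factor neurturin, read -1.38 and -1.22 against 2.66 and 2.72 (15.8-fold, adjusted p = 0.333). Fxyd6, a regulator of the sodium pump, was at least 19-fold higher and Itln1, a secreted lectin of the gut, at least 15.2-fold higher (adjusted p = 0.259 and 0.595). In these 4 genes the Vav-Etv2 arrays lay close to each other. Tspan18, a tetraspanin found in endothelium, differed in this respect, at 5.43 in array 1 and -0.54 in array 2 against -3.89 and -4.28 in the controls. Ccr2, the chemokine receptor of inflammatory monocytes, read -0.07 and 0.20 in the controls and 3.65 and 3.14 in the Vav-Etv2 arrays (10.1-fold, adjusted p = 0.545). Vpreb1, also in the group, is described with the B lineage.

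On the lower side the widest gaps were held by genes of varied function. Dlk1, an imprinted Notch-like membrane protein, read 1.99 and 1.77 in the controls and -2.92 and -2.28 in the Vav-Etv2 arrays (22.3-fold lower, adjusted p = 0.112). Npdc1, which encodes a neural membrane protein, read 1.30 and 1.12 against -3.67 and -2.48 (19.4-fold lower, adjusted p = 0.0756). Mid1, a ubiquitin ligase that binds microtubules, read 4.32 and 4.29 against 0.44 and 1.26 (10.9-fold lower, adjusted p = 0.146). The groups were separated by at least 3 log2 in all 3. Col1a2, a chain of type I collagen, read 0.73 and 0.74 in the controls and -2.09 and -3.08 in the Vav-Etv2 arrays (10-fold lower, adjusted p = 0.204). Pgr, the progesterone receptor, read 0.46 and 0.68 against -5.98 and -2.63, with array 1 not above background (16.7-fold lower with array 1 at the floor, adjusted p = 0.290). Sdc2, a heparan sulphate proteoglycan, was at least 9.28-fold lower, and Rab6b and Bdh2 were 22.6-fold and 18.5-fold lower. Syt10, Evc2 and Fyb2 were not above background in array 1 and, with that array at the floor, 41-fold, 10.4-fold and 11.4-fold lower. Limma's adjusted p was 0.133 for Sdc2 and lay between 0.157 and 0.578 for the other 5 genes. Bpifb5, not above background in either Vav-Etv2 array, was at least 7.21-fold lower (adjusted p = 0.0968). None of these named lower genes passed the test.

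Genes of known function were grouped in 32 lists, leaving aside the sex-linked genes above, and each list is given by the median over its measured members of the log2 difference, array by array. The same median over all 23227 features was 0.01 in Vav-Etv2 array 1 and 0.00 in array 2. In none of the lists did limma call a member, and the counts below are to be read against the shares of all features at least 1 log2 beyond both controls in both arrays, 0.784% above and 2.08% below. In bulk RNA of sorted cells, fewer cells of a type and less RNA per cell cannot be told apart. Markers of other cell types differed between the Vav-Etv2 arrays. The summed signal, relative to the 75th percentile, of 32 mature neutrophil genes was 1900 and 1840 in the controls, 188 in array 1 and 2010 in array 2. That of 18 stromal genes was 32.2 and 31.3, 247 and 39.7 in the same order, and without Sparc and Fn1, the brightest of them in array 1, that of the other 16 was 25.6 and 23.4, 19 and 23.2. That of 37 endothelial junction and surface genes was 517 and 558, 932 and 614, and that of 31 B lineage genes 181 and 192, 289 and 424. The part of such cells in the differences below was not tested.

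**Figure D2:**
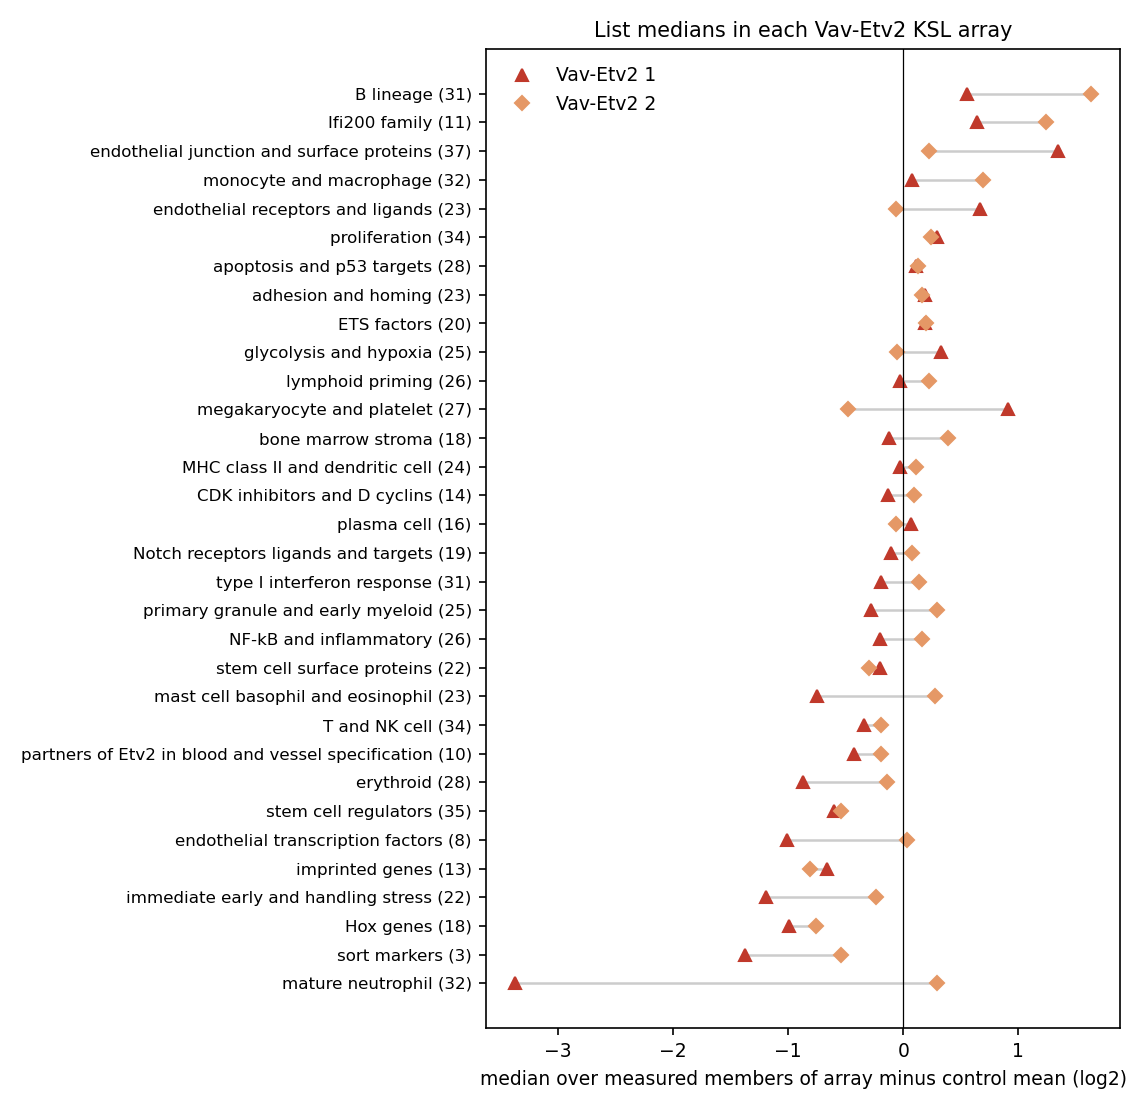
For each gene list (number of measured members in brackets) the 2 markers give the median of the log2 difference from the control mean in Vav-Etv2 KSL array 1 (triangle) and array 2 (diamond). B lineage genes stand above 0 in both arrays (0.55 and 1.63) and Hox genes and stem cell regulators below 0 in both, while mature neutrophil genes stand at -3.37 in array 1 and 0.29 in array 2.

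Transcription factors and other regulators of haematopoietic stem cells stood lower. All 35 listed genes were measured, 31 had a negative difference (4 positive, against 50.3% of all features), and 9 (25.7%) lay at least 1 log2 below both controls in both Vav-Etv2 arrays, against 2.08% of all features, with 0 above. The list median was -0.60 in array 1 and -0.54 in array 2. Hlf, a bZIP factor that marks stem cells, read 4.63 and 4.53 in the controls and 0.45 and 2.64 in the Vav-Etv2 arrays (8.19-fold lower, adjusted p = 0.319). Nkx2-3, a homeobox factor, read 1.39 and 1.27 against -2.21 and 0.05. Prdm16, a regulator of stem cell maintenance, read -0.60 and -0.35 against -3.51 and -2.11. In these genes both Vav-Etv2 arrays lay below the controls, and array 1 was the lower of the pair. Tcf15, a bHLH factor tied to stem cell quiescence, was not above background in array 1 (-5.22) and read -2.21 in array 2, against -0.95 and -0.85 in the controls.

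Not all stem cell factors took part. Meis1, a partner of Hox proteins, read 4.91 and 5.10 in the controls and 4.65 and 4.62 in the Vav-Etv2 arrays (difference -0.36, SE 0.50). Runx1, the core blood transcription factor, read 3.12 and 2.93 against 2.48 and 2.71 (difference -0.43, SE 0.30). Gata2 and Tal1, which work with Etv2 in the embryo, differed by -1.07 (SE 1.34) and -0.92 (SE 0.34), with adjusted p of 1.00 and 0.616. Mecom, a zinc finger factor of stem cells, overlapped between the groups, at -2.71 and -3.84 in the controls and -6.05 and -3.29 in the Vav-Etv2 arrays.

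Of 22 Hox genes and Hox partners listed, 18 passed the filter on low signals, and each of the 18 had a negative difference. In 6 (33.3%) both Vav-Etv2 arrays lay at least 1 log2 below both controls, and in 12 (66.7%) both lay below at all, against 29.1% of all features. The lowest difference, -3.7, was that of Hoxb5 and equalled the lowest among the stem cell regulators. The counts of both lists may therefore share genes. Hoxb5, which marks long-term stem cells, read -1.71 and -1.75 in the controls and -6.01 and -4.84 in the Vav-Etv2 arrays, not above background (at least 6.45-fold lower, adjusted p = 0.146). Hoxb8 and Hoxb6 were likewise not above background in either Vav-Etv2 array, at least 4.91-fold and 4.62-fold lower. Hoxa10, a posterior gene of the a cluster, read -0.76 and -0.66 against -3.57 and -2.03 (4.25-fold lower, adjusted p = 0.475). Within the same b cluster the shift was uneven. Hoxb4, known for driving stem cell expansion when overexpressed, read 1.30 and 1.51 in the controls and 0.79 and 1.46 in the Vav-Etv2 arrays, so the groups overlapped. The leukaemia-associated Hoxa9 read 0.73 and 0.62 against 0.03 and -0.06 (1.61-fold lower, adjusted p = 0.875).

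Imprinted genes, which are read from 1 parental copy and include growth-restraining genes of stem cells, were split. Of 24 listed, 13 were measured, and 6 (46.2%) lay at least 1 log2 below both controls in both Vav-Etv2 arrays. The maternally expressed RNA Meg3 read -1.31 and -1.38 in the controls and -4.34 and -3.77 in the Vav-Etv2 arrays (6.56-fold lower, adjusted p = 0.0756), alongside Dlk1 of the same imprinted domain on chromosome 12. Cdkn1c, which encodes the CDK inhibitor p57, read 0.45 and 0.55 against -0.77 and -1.27 (2.86-fold lower, adjusted p = 0.214). Grb10, an adaptor that dampens insulin-type receptors, read -1.39 and -1.34 against -2.71 and -3.93. In these genes the groups did not overlap, and for Cdkn1c and Grb10 the lower reading was that of array 2. H19 and Mest, on the other hand, were high in array 1 alone. The non-coding RNA H19 read 3.06 in array 1 and -2.62 in array 2, against -3.07 and -2.91 in the controls. Mest, a paternally expressed enzyme of the embryo, read 3.48 in array 1 and -4.03 in array 2, against -6.10 and -6.20.

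**Figure D3:**
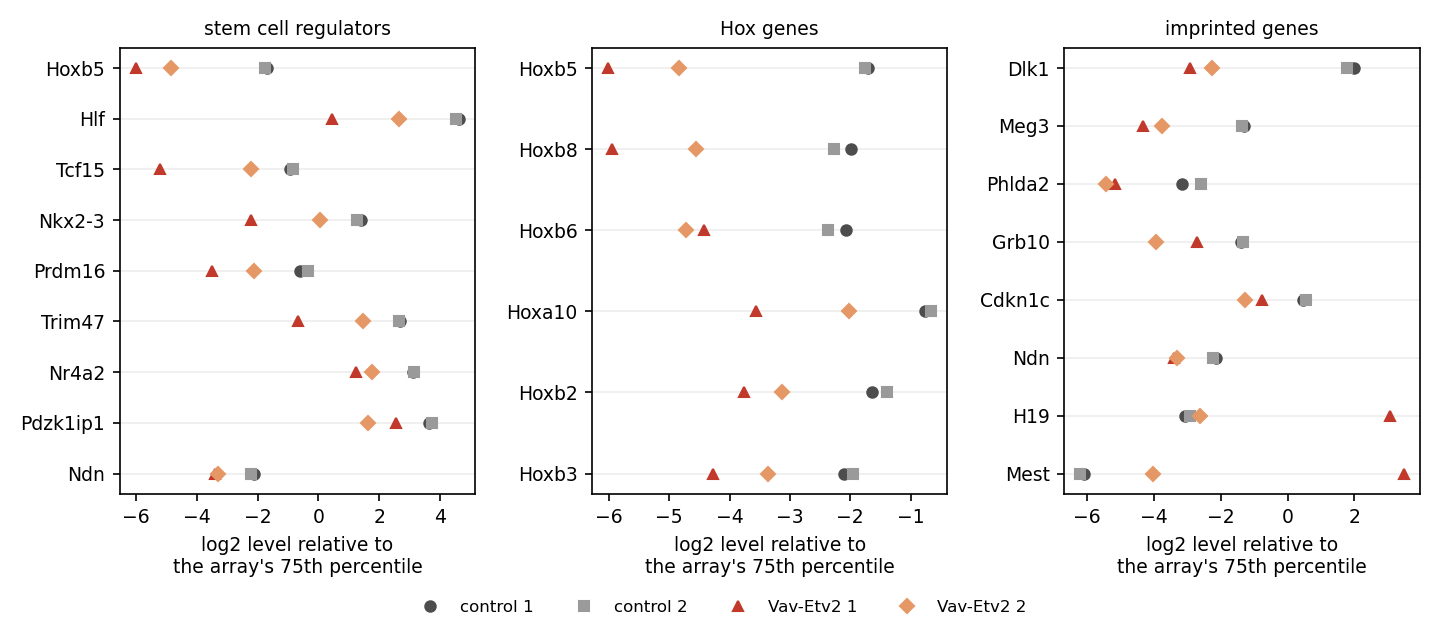
Levels in the 4 KSL arrays (horizontal axis, log2 relative to the array's 75th percentile) of the stem cell regulators, Hox genes and imprinted genes in which both Vav-Etv2 arrays lay at least 1 log2 below both controls, or in which array 1 alone lay at least 2 log2 above. The control points sit together to the right of both Vav-Etv2 points in every gene but H19 and Mest, in which only array 1 departs far from the controls.

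Surface proteins used to divide the KSL fraction gave a mixed picture, with 2 of 22 measured (9.09%) at least 1 log2 below both controls. Procr, the protein C receptor that marks stem cells, read 2.10 and 2.35 in the controls and -0.09 and 0.29 in the Vav-Etv2 arrays (4.35-fold lower, adjusted p = 0.431). Bmpr1a, a receptor for bone morphogenetic proteins, was at least 3.14-fold lower, since neither Vav-Etv2 array read it above background (adjusted p = 0.239). Slamf1, which encodes the stem cell marker CD150, overlapped between the groups, at -1.65 and -1.89 in the controls and -1.95 and -1.56 in the Vav-Etv2 arrays. Cd48, found on progenitors that have left the stem cell state, read 4.07 and 4.26 against 4.70 and 4.88 (difference 0.63, SE 0.90). Itga2b, the integrin chain CD41, was high in array 1 only, at 4.79 against 0.81 and 0.98 in the controls and 1.51 in array 2.

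B lineage genes stood higher in both Vav-Etv2 arrays. All 31 listed were measured, 28 had a positive difference, and 12 (38.7%) lay at least 1 log2 above both controls in both arrays, against 0.784% of all features, with 0 below. The list median was 0.55 in array 1 and 1.63 in array 2. Vpreb1 and Igll1 encode the surrogate light chain of the pre-B cell receptor. Vpreb1 read 1.25 and 1.53 in the controls and 4.82 and 4.87 in the Vav-Etv2 arrays (10.9-fold, adjusted p = 0.356). Igll1 read -1.32 and -1.25 against 2.33 and 2.62 (13.5-fold, adjusted p = 0.393). For both genes the Vav-Etv2 arrays lay close together and over 3 log2 from the controls. Vpreb3, which binds the surrogate light chain during assembly, read 1.88 and 2.06 against 4.78 and 5.62 (9.43-fold, adjusted p = 0.456).

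Transcription factors of B cell commitment were part of the group. Ebf1 read -0.69 and -1.05 in the controls and 1.48 and 2.18 in the Vav-Etv2 arrays (6.47-fold, adjusted p = 0.692). Pax5, which locks in B cell identity, was not above background in the controls and read -2.81 and -1.95 in the Vav-Etv2 arrays, at least 3.43-fold higher (adjusted p = 0.440). Lef1, a Wnt pathway factor of early B and T progenitors, read -0.91 and -0.58 against 2.45 and 2.28 (8.62-fold, adjusted p = 0.360). The order of the Vav-Etv2 arrays varied by gene, with Lef1 slightly higher in array 1 and the other factors higher in array 2. Cd79a, a signalling chain of the B cell receptor, read 0.84 and 0.68 against 1.96 and 2.93 (3.21-fold, adjusted p = 0.869). In 3 of the 31 B lineage genes array 2 alone lay at least 2 log2 above both controls, among them Spib and Ms4a1. Spib, an ETS factor of mature B and plasmacytoid dendritic cells, read 3.39 there, against -0.02 in array 1 and 0.76 and 1.04 in the controls. Ms4a1, which encodes CD20, read 1.74 in array 2, against -1.55 in array 1 and -0.92 and -0.51 in the controls.

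Of 26 lymphoid priming genes measured, 3 (11.5%) lay at least 1 log2 above both controls and 1 below. Rag1, a subunit of the recombinase that joins antigen receptor segments, read -0.83 and -0.61 in the controls and 1.98 and 2.52 in the Vav-Etv2 arrays (7.81-fold, adjusted p = 0.456). Its partner Rag2 read 0.34 and 0.37 against 1.73 and 1.6 (2.47-fold, adjusted p = 0.998). Foxo1, which acts on the Rag genes, read 1.46 and 1.52 against 2.64 and 2.79 (2.34-fold, adjusted p = 0.616). In each of these genes the groups were separated by over 1 log2. Other genes of the first lymphoid steps did not separate as far. The Il7r chain of the interleukin 7 receptor read 1.56 and 1.66 against 2.12 and 2.75, and Dntt, the terminal transferase of early lymphoid cells, read 7.70 and 7.75 against 8.29 and 7.81. Notch1, the receptor that directs T cell fate, was the lower one, at 1.18 and 1.24 in the controls and -0.77 and -0.26 in the Vav-Etv2 arrays (3.30-fold lower, adjusted p = 0.215).

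In the immunoglobulin regions the direction was the opposite. These regions were delimited after the values were seen, and they take in neighbouring genes of other kinds. Of the 99 kappa region features 44 had an immunoglobulin name or description, as had 45 of the 127 heavy chain region features. The counts and medians below are of all features in each region. In the kappa region, chr6:67030167-70911057 on mm9, 49 of 99 features (49.5%) lay at least 1 log2 below both controls in both Vav-Etv2 arrays and 0 above, against 2.25% lower on the rest of chromosome 6. The median level of the 99 was 0.37 and 0.17 in the controls, -4.66 in array 1 and -1.20 in array 2. In the heavy chain region, chr12:114006018-117960660, 33 of 127 features (26.0%) lay as far below and 1 above (Crip2, a LIM protein), against 1.36% lower on the rest of chromosome 12. The medians there were -0.35 and -0.30 in the controls, -1.59 in array 1 and -0.97 in array 2. Neither region was low throughout. Not all features in them are immunoglobulin segments, as with Serbp1 on chromosome 6 and Mta1 on chromosome 12. Crip1, a LIM protein gene within the heavy chain region, read 7.12 and 6.99 in the controls and 6.91 and 7.00 in the Vav-Etv2 arrays. Igkv5-39, a kappa variable segment, read 3.67 and 3.89 in the controls and -6.58 and -3.98 in the Vav-Etv2 arrays. Igh-VJ558 read 8.48 and 8.42 in the controls, -2.25 in array 1 and 6.29 in array 2, so the size of the difference depended on the array. Of the 82 lower features in both regions, 23 had a probe that shared a run of at least 25 bases with another of them and 59 did not, with a median longest run of 15 bases.

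Plasma cell genes were level as a list (16 measured, median -0.01), but 2 members (12.5%) lay at least 1 log2 below both controls. Jchain, the joining chain of secreted IgM and IgA, read 6.08 and 6.09 in the controls, 1.25 in array 1 and 4.09 in array 2 (difference -3.42, SE 1.99, adjusted p = 0.881). Tnfrsf17, the survival receptor BCMA of plasma cells, read -1.62 and -1.6 against -5.44 and -4.23 (6.41-fold lower with array 1, not above background, at the floor, adjusted p = 0.195). Prdm1, the factor that drives plasma cell formation, read -2.15 and -2.07 against -1.62 and -1.48, on the other side of the controls. T and NK cell genes leaned lower, with 25 of 34 measured negative and 3 (8.82%) at least 1 log2 below both controls. The 1 member as far above (2.94%) was Lef1, given with the B lineage. Cd3g and Cd3d, chains of the T cell receptor complex, were not above background in array 1 and read -3 and -2.13 in array 2. Their control levels were -1.65 and -1.36 for Cd3g and -0.58 and -0.55 for Cd3d. Gata3, a factor of T and innate lymphoid cells, read 0.95 and 0.88 in the controls and -0.18 and -0.40 in the Vav-Etv2 arrays (2.31-fold lower, adjusted p = 0.706).

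**Figure D4:**
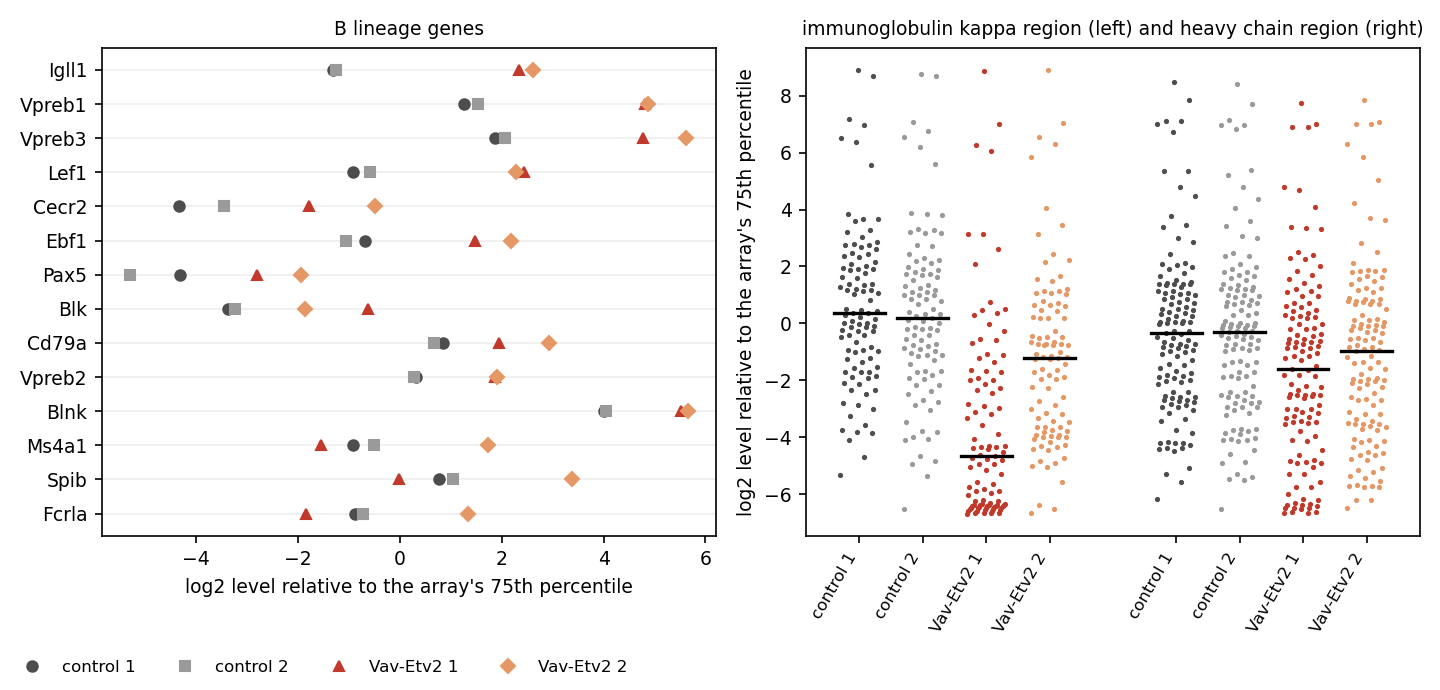
Left, levels in the 4 KSL arrays (log2 relative to the array's 75th percentile) of B lineage genes high in both Vav-Etv2 arrays or in array 2 alone; right, 1 dot per feature of the kappa region (99) and the heavy chain region (127) in each array, with the median as a bar. The B lineage genes lie to the right of the controls, except Ms4a1, Spib and Fcrla in array 1, while the kappa region median drops from 0.37 and 0.17 in the controls to -4.66 and -1.20.

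Endothelial junction and surface proteins stood mostly higher, and by far more in array 1. Endothelial transcription factors showed no such lean in both arrays. Of 8 measured, 2 (25%) lay above both controls in both Vav-Etv2 arrays and 2 (25%) below, against 24.4% and 29.1% of all features. Among junction and surface proteins 37 of 42 listed were measured and 30 had a positive difference. In 6 (16.2%) both Vav-Etv2 arrays lay at least 1 log2 above both controls, and in 11 (29.7%) array 1 alone lay at least 2 log2 above, against 1.04% of all features. The list median was 1.34 in array 1 and 0.22 in array 2. Cdh5, the cadherin of endothelial junctions, read -3.75 and -3.65 in the controls, 3.53 in array 1 and -1.59 in array 2 (difference 4.67, SE 1.65, adjusted p = 0.578). Ptprb, an endothelial phosphatase that acts on Tek and Cdh5, was not above background in the controls (-4.44 and -4.46) and read 2.61 and -1.82. Stab1, a scavenger receptor of sinusoid endothelium and macrophages, read -2.81 and -2.71 in the controls and 1.17 and -0.80 in the Vav-Etv2 arrays. For these genes both Vav-Etv2 arrays lay above both controls, and array 1 was the higher of the pair. Stab2, the related receptor of sinusoids, was nearly alike in the Vav-Etv2 arrays at 0.33 and 0.28, against -1.03 and -1.10. Cldn5, the claudin of endothelial tight junctions, read 1.72 in array 1 and -1.69 in array 2, against -2.71 and -2.68.

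Among receptors and ligands 23 of 27 listed were measured and 14 had a positive difference, with a list median of 0.67 in array 1 and -0.06 in array 2. Of the 23, 1 (4.35%) lay at least 1 log2 above both controls in both arrays and 4 (17.4%) in array 1 alone. Flt1, a receptor of vascular endothelial growth factor, read -2.98 and -2.71 in the controls, 3.77 in array 1 and -1.29 in array 2 (difference 4.08, SE 1.44, adjusted p = 0.578). Tek, the receptor of angiopoietins, read -2.03 and -1.91 against 1.91 and -1.05. Kdr, the main receptor of that growth factor and a gene Etv2 acts on in the embryo, read 3.70 and 3.1 in the controls and 3.37 and 3.13 in the Vav-Etv2 arrays (difference -0.15, SE 0.48). Of these receptors, Flt1 and Tek were high above all in array 1, and Kdr overlapped between the groups. Of 17 endothelial transcription factors listed, 8 passed the filter, 2 with a positive difference and 6 with a negative one. The list median was -1.01 in array 1 and 0.03 in array 2, and 1 (12.5%) was high in both arrays. The positive ones were Sox18 and Bcl6b. Sox18 read -3.14 and -3.15 in the controls, 3.04 in array 1 and -1.50 in array 2 (15.1-fold, adjusted p = 0.746). Bcl6b was not above background in the controls and read 1.96 in array 1 and -3.63 in array 2. Klf2, which responds to blood flow in endothelium, overlapped between the groups, at 4.02 and 3.81 against 2.79 and 3.99. Hey1, an arterial Notch target, was above background only in the controls and at least 1.74-fold lower in Vav-Etv2 cells (adjusted p = 0.204).

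Promoters of the named endothelial genes and of Etv2 were searched for ETS motifs in RefSeq sequence of build GRCm38.p6, from 250 bases before to 50 bases after each start. Of 22 genes 12 matched, with 14 promoters. The motif CCGGAAG was in 0 of them and CAGGAAG in 2 (14.3%), on either strand, against 8.86% and 13.3% of 32851 promoters. The 2 matches are shown with the motif in capitals and 20 bases on each side, the first at chr14:31168732-31168778 and the second at chrX:48034940-48034986, both of genes on the minus strand and both upstream of the start.
Stab1: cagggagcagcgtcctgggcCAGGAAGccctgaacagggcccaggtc
Apln: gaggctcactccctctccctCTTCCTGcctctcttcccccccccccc
The match of Apln is on the opposite strand. The share with CAGGAAG was close to that of all promoters, and the genes with a match did not move one way. Stab1 stood higher in Vav-Etv2 cells (7.70-fold, adjusted p = 0.469), while Apln, a ligand for an endothelial receptor, read -2.05 and -1.78 in the controls and -3.85 and -2.75 in the Vav-Etv2 arrays.

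ETS factors stood slightly higher as a list, with a median of 0.19 in array 1 and 0.20 in array 2 over 20 genes, Etv2 included. Of the 20, 16 had a positive difference (80%, against 50.3% of all features), and in 9 (45%) both Vav-Etv2 arrays lay above both controls, against 24.4%. Fli1, which shares many targets with Etv2, read 2.82 and 3.01 in the controls and 3.21 and 2.90 in the Vav-Etv2 arrays. Erg, an ETS factor of stem cells and endothelium, read 2.02 and 2.14 against 1.10 and 1.64 (difference -0.71, SE 0.66). The myeloid and B cell factor Spi1 read -0.33 and -0.06 against 0.12 and 0.31. Only Etv2 of the 20 lay at least 1 log2 beyond both controls in both arrays (5.00%). Among 10 measured partners of Etv2 in blood and vessel formation 0 lay that far from the controls. Lmo2, a bridging protein of the Tal1 complex, read 6.54 and 6.43 against 5.64 and 5.93 (difference -0.70, SE 0.29). Of 19 Notch pathway genes measured, 1 (5.26%) stood higher by that rule and 2 (10.5%) lower. The feedback inhibitor Nrarp read -3.31 and -3.12 in the controls and -1.14 and -2.08 in the Vav-Etv2 arrays, while Notch1, described above, and Notch3 were lower. Notch4, the endothelial Notch receptor, was high in array 1 alone (1.88, against -1.40 in array 2 and -1.57 and -1.53 in the controls).

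Megakaryocyte and platelet genes followed the endothelial surface genes in array 1 but not in array 2. Of 27 measured, 6 (22.2%) were high in array 1 alone, and the list median was 0.91 in array 1 and -0.48 in array 2. Clec1b, the podoplanin receptor of platelets, read -1.79 and -1.47 in the controls, 4.78 in array 1 and -0.14 in array 2 (15.4-fold, adjusted p = 0.606). Itgb3, the partner of Itga2b in the fibrinogen receptor, read 5.26 in array 1 and 2.01 in array 2, against 2.45 and 2.53. Pf4, platelet factor 4, overlapped between the groups, at 5.79 and 6.08 against 6.68 and 4.96. The summed signal of the list, relative to the 75th percentile, was 206 and 226 in the controls, 440 in array 1 and 135 in array 2.

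Mature neutrophil genes set array 1 apart in the other direction. All 32 measured were above background on all 4 arrays, and 23 (71.9%) lay at least 2 log2 below both controls in array 1 alone, against 0.977% of all features. Lcn2, a granule protein that binds iron carriers, read 6.89 and 6.90 in the controls, 1.74 in array 1 and 6.91 in array 2. Camp, the granule antimicrobial cathelicidin, read 7.15 and 7.21, 2.51 and 7.14 in the same order. S100a8, a calcium-binding protein abundant in neutrophils, read 8.29 and 8.24, 4.09 and 8.36. Array 2 was thus level with the controls in these genes of cells that a lineage-negative gate is meant to leave out, and array 1 was the one that read low. Primary granule genes, made earlier, were closer to the controls as a list, with a median of -0.28 in array 1 and 0.29 in array 2. Even so, 3 of 25 measured (12%) lay at least 2 log2 below both controls in array 1 alone. Mpo, myeloperoxidase, read 8.67 and 8.63 in the controls and 8.70 and 8.89 in the Vav-Etv2 arrays, while Elane, neutrophil elastase, read 2.70 in array 1 alone, against 4.78 and 4.76 in the controls and 4.71 in array 2. Some eosinophil and mast cell genes also read low in array 1. Prg2, the eosinophil major basic protein, read 2.35 and 2.41 in the controls, -3.67 in array 1 and 3.85 in array 2. Unlike the neutrophil genes named above, it thus lay above the controls in array 2. The mast cell protease Cpa3 overlapped between the groups, at 2.61 and 2.66 against 2.21 and 2.73.

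**Figure D5:**
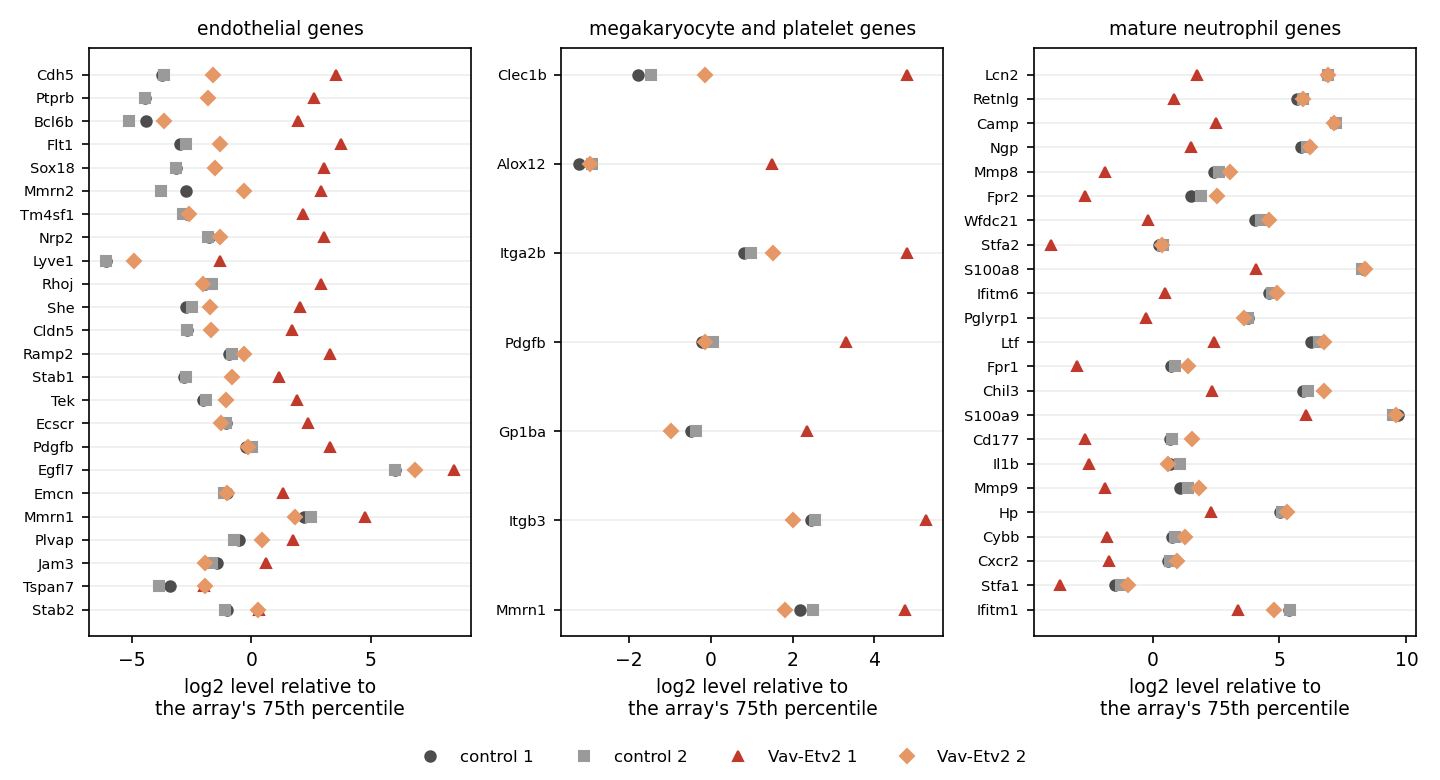
Levels in the 4 KSL arrays (horizontal axis, log2 relative to the array's 75th percentile) of endothelial and megakaryocyte genes high in Vav-Etv2 array 1 alone or in both arrays, and of mature neutrophil genes low in array 1 alone. In the neutrophil panel array 2 lies with the controls (Camp 7.14, against 7.15 and 7.21) and array 1 far below (2.51); in the endothelial panel array 1 lies far above and array 2 between it and the controls or with them.

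Erythroid genes leaned lower, more so in array 1 (median -0.87) than in array 2 (-0.14), with 0 of 28 measured past the size rule in both arrays. Klf1, the erythroid factor of globin genes, read 0.37 and 0.19 in the controls and -1.04 and -0.01 in the Vav-Etv2 arrays, and Gata1 overlapped at 3.00 and 3.18 against 3.14 and 2.91. Monocyte and macrophage genes leaned higher, with 4 of 32 measured (12.5%) at least 1 log2 above both controls and 0 below. Beside Ccr2 these were Clec4f, a lectin of liver macrophages, the mannose receptor Mrc1, and Siglec1, a sialic acid receptor of resident macrophages. Mrc1 read -2.18 and -2.11 in the controls and 0.59 and -0.74 in the Vav-Etv2 arrays (4.19-fold, adjusted p = 0.555). Clec4f was not above background in the controls and read -2.41 and -2.69 in the Vav-Etv2 arrays, at least 3.04-fold higher (adjusted p = 0.124). The macrophage markers Adgre1 and C1qa overlapped between the groups, with C1qa at -1.93 and -1.85 against -2.75 and -1. The third such marker, Csf1r, did not overlap, at 4.18 and 4.28 against 4.67 and 5.02 (difference 0.62, SE 0.30, limma adjusted p = 0.797). Of 24 MHC class II and dendritic cell genes 0 passed the size rule in both arrays. Siglech, the marker of plasmacytoid dendritic cells, stood between 7.30 and 7.43 on all 4 arrays.

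Of 33 stromal genes listed, 18 passed the filter. Col1a1 and Kitl were not above background on any KSL array, while Lepr and Cxcl12 were above it on all 4. Sparc, a matrix protein also made by endothelium and megakaryocytes, read -0.20 and -0.28 in the controls, 7.08 in array 1 and 2.29 in array 2 (30.3-fold, adjusted p = 0.534). Fn1, fibronectin, read 2.54 and 2.83, 6.54 and 3.53 in the same order. Alpl, the alkaline phosphatase of bone and early germ cells, read -3.88 and -3.86 against 0.19 and -0.58 (12.7-fold, adjusted p = 0.259). Sparc and Alpl were the only 2 of the 18 (11.1%) high in both arrays, and Col1a2, given above, was the lower one. Lepr, the leptin receptor of marrow stroma, overlapped at 2.89 and 2.29 against 2.37 and 2.05. Cxcl12 overlapped too, at -2.0 and -1.6 in the controls and -3.9 and -0.6 in Vav-Etv2 arrays 1 and 2.

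Genes of cell division were slightly higher. Of 34 proliferation genes measured, 31 had a positive difference, and in 24 (70.6%) both Vav-Etv2 arrays lay above both controls, against 24.4% of all features. The shifts were small, with a median of 0.29 in array 1 and 0.24 in array 2 and 0 genes at least 1 log2 above the controls. Mki67, the proliferation antigen, read 6.06 and 6.20 in the controls and 6.41 and 6.56 in the Vav-Etv2 arrays (difference 0.36, SE 0.36, adjusted p = 1.00). Plk1, a mitotic kinase, read 4.76 and 4.77 against 5.27 and 5.13 (difference 0.44, SE 0.32, adjusted p = 0.956). Among cell cycle regulators Ccnd1, a cyclin of the first growth phase, read 2.04 and 2.37 against 3.29 and 3.11 (1.99-fold, adjusted p = 0.419). The CDK inhibitor Cdkn1a (p21) read 2.51 and 2.47 against 1.61 and 1.65 (1.81-fold lower, adjusted p = 0.845). For Ccnd1 and Cdkn1a the arrays of a group lay closer to each other than to the other group. Of 28 apoptosis genes measured, 1 (3.57%) stood at least 1 log2 above both controls, the cell death activator Bmf, at -1.34 and -1.18 against 1.52 and 0.56 (4.93-fold, adjusted p = 0.205).

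The Ifi200 family on chromosome 1, a cluster of DNA-sensing and interferon-inducible genes, stood apart from other interferon genes. Of 11 measured, 4 (36.4%) lay at least 1 log2 above both controls in both Vav-Etv2 arrays. Beside Ifi202b and Ifi214, Ifi209 read -0.30 and -0.19 in the controls and 2.12 and 2.43 in the Vav-Etv2 arrays (5.73-fold, adjusted p = 0.477). Ifi211 read -0.37 and -0.38 against 1.43 and 1.51 (3.60-fold, adjusted p = 0.620). The neighbouring Mndal went the other way, at 3.79 and 3.92 against 3.07 and 3.45 (difference -0.60, SE 0.92). Members of this family are near-copies of each other, so a probe may read more than 1 of them. Strain, of unknown make-up on each array, was not tested as a source of these differences. Of 31 type I interferon response genes, 0 lay at least 1 log2 beyond the controls in both arrays. Isg15, a ubiquitin-like protein induced by interferon, read 3.38 and 3.24 against 3.25 and 3.49.

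Immediate early genes, which cells also switch on during dissociation and sorting, leaned lower, mainly in array 1. Of 22 measured, 18 had a negative difference, with a median of -1.19 in array 1 and -0.24 in array 2. Fos read 6.14 and 6.12 in the controls and 4.63 and 5.89 in the Vav-Etv2 arrays, and Egr1 read 5.51 and 5.41 against 3.02 and 4.72. Both Vav-Etv2 arrays lay below the controls in these genes, and array 1 the further. Egr1 and Nr4a1 stand in the list of stem cell regulators too. Lists of NF-kB targets, adhesion and homing, and glycolysis had medians between -0.06 and 0.17, with 0 members higher and 1 lower by the size rule in both arrays. That member was Ndrg1, a hypoxia and differentiation gene, at 4.38 and 4.47 against 3.00 and 3.30 (2.41-fold lower, adjusted p = 0.307). Cxcr4, the receptor that keeps stem cells in the marrow, overlapped between the groups, at 2.33 and 2.51 against 1.93 and 2.84.

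The overlap with Gr cells of the same genotypes depended on the array labelled Gr control 2, in which Etv2 was detected. With it, the rule of at least 1 log2 beyond both controls gave 12 features higher (0.0517%) and 20 lower (0.0861%) in Gr cells. Without it, 565 features were higher (2.43%) and 409 lower (1.76%), and 21 higher and 56 lower ones were shared with KSL cells, 11.5% and 11.6% of those in KSL cells and 3.72% and 13.7% of those in Gr cells. That comparison rests on 1 Gr control. Without Gr control 1 instead, 100 features were higher (0.431%) and 62 lower (0.267%) in Gr cells. Shared with KSL cells were 4 higher and 11 lower, 4% and 17.7% of those in Gr cells. They made up 2.2% and 2.28% of those in KSL cells. Under this rule, leaving out either control can only keep or raise the Gr counts. With both controls, 3 of the higher features were in both cell types, 1.65% of those in KSL cells and 25% of those in Gr cells, and they were Ifi214, Sva and Grap, an adaptor of receptor signalling. Sva read -3.47 and -3.32 in the Gr controls and 0.35 and 1.15 in the Gr Vav-Etv2 arrays. Ifi214 read -5.17 and -3.54 against -1.74 and -1.62. Of the lower features 6 were in both, 1.24% of those in KSL cells and 30% of those in Gr cells. Of these, 4 were the immunoglobulin-region features ENSMUST00000103416, ENSMUST00000103418, ENSMUST00000103421 and ENSMUST00000103383. The others were BC019489, an IgG2a clone whose probe lies next to that of ENSMUST00000103416, and the probe A_55_P1957768, which has no gene name here. Mid1 was low in Vav-Etv2 KSL cells and stood higher in Gr cells, at -3.92 and -2.87 in the Gr controls and -0.63 and -1.72 in the Gr Vav-Etv2 arrays. A direct test of the difference between the effects, in the same limma model, called 1 feature (0.00431%), ENSMUST00000103414, at -0.18 in Gr cells, where it was not above background on any array. Without the array labelled Gr control 2 it called 0 (2095 at an unadjusted p under 0.05). For the other genes a difference between the cell types was not shown.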

How the data were processed

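Per the labels, total RNA of sorted cells was amplified from low input, labelled with Cy3 and hybridised to Agilent 1-colour arrays. Per the file headers, the authors deposited fluorescence intensity from Feature Extraction 10.7 (version per the submitters' processing notes) on mm9 positions. The column used is the background-subtracted processed signal. The deposited log2 value table was used as an alternative. Its KSL columns equal these signals scaled to the 75th percentile and centred on each probe's median over the 4 KSL arrays (99.7% of 222644 values within 0.01), with column medians from -0.016 to 0.153. Other deposited columns mark outlier, dim, saturated and control spots. Here spots of a probe were averaged, log2 values were taken and the array's 75th percentile was subtracted. Probes well above background on at least 2 of 8 arrays were kept (32354), and the brightest probe stood for its gene. Limma 3.58.1 (lmFit, eBayes; R 4.3.3) fitted 4 groups of 2 arrays, with 4 residual and 2.77 prior degrees of freedom. Calls had a Benjamini-Hochberg adjusted p under 0.05, and SE is limma's moderated standard error. The fit was tested on simulated data. An "at least" fold compares the brighter group with each array's lowest signal well above background, or the probe's own signal where higher, when neither array of the dimmer group was well above background. The rules by array position raised dim values to that same floor.

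Named were the called features, up to 12 genes per direction with the widest gap between groups, up to 10 per direction with the widest gap between the Vav-Etv2 arrays, and in each list its anchor genes and up to 6 members with the largest difference. Ms4a1, Crip1, Crip2, Igkv5-39, Igh-VJ558, Grap and the other immunoglobulin features were chosen after their values were seen. The members and lists were chosen with earlier results of these data known. Symbols came from the transcript accession in the files (26679 probes), a current symbol (2534) or an older one (473), and 25975 probes kept the name in the file. The Gr size rule without single Gr controls and the stromal sum without Sparc and Fn1 were chosen after seeing the data. Some genes that this rule names are not reported here, though list counts and medians include them.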

Additional observations from a re-analysis of the deposited data

Results flagged for a closer look

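ENSMUST00000103414, in the immunoglobulin heavy chain region, stood out because the difference between its Vav-Etv2 effects in KSL and in Gr cells was itself past the threshold (KSL effect minus Gr effect -6.57 log2, SE 0.38, limma adjusted p = 0.0159). In KSL cells it read 1.06 and 1.34 in the controls and -5.56 and -5.54 in Vav-Etv2 cells. In Gr cells it read between -5.68 and -5.44 on the 4 arrays and was not above background on any of them, so no difference could be measured there. Leaving out any 1 of the 8 arrays ended this call (lowest limma adjusted p over all features from 0.0888 to 0.340), with between 516 and 2095 features at an unadjusted p under 0.05. No feature passed for this difference with no filter (lowest limma adjusted p 0.0519), with values raised to the floor (0.206), with an intensity trend (0.101) or with the replicate block (0.0557).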

How the results depend on the processing

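The counts moved with the processing and with single arrays, while Etv2 kept its direction (log2 difference from 1.63 to 4.74, limma adjusted p never past the threshold). The main counts were 1 higher and 3 lower calls, 1 call for a difference between cell types, 182 higher and 482 lower features by the position of both arrays, and 469 features apart in array 1 alone and 30 in array 2 alone, both directions together. Normexp background correction gave 2 and 14 calls, 4 for the difference between cell types, 57 and 203 by position, and 186 and 5 in 1 array alone. Quantile normalization gave 14 and 36 calls and 5 for the difference between cell types, and median scaling 7, 20 and 2. With no filter there were 0 higher calls (1907 features at an unadjusted p under 0.05), 0 for the difference between cell types (1042) and 51 features apart in array 2 alone. A filter on the KSL arrays gave 4 and 8 calls. Values raised to the floor gave 2 and 8 calls and 0 for the difference (734 at an unadjusted p under 0.05), single probes 0 higher calls (2349), and an intensity trend 2 higher calls and 0 for the difference (820). The authors' value table gave 287 higher by position and 76 apart in array 2 alone. By the rule on the position of both arrays, leaving out a KSL array can only keep or raise the count, so that rise says nothing about the data. Leaving out single arrays gave 0 to 14 higher and 0 to 23 lower calls, 0 for the difference, 293 to 1194 higher and 635 to 1556 lower by position, and 39 to 47 apart in array 2 alone. Among recomputed values of single genes and list medians, no called value reversed, 32 values newly passed the threshold and 25 no longer did.

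The labels do not say that equal replicate numbers mark shared mice or days. Replicate 1 minus 2 correlated over features at 0.0679 between the KSL groups and 0.658 between the Gr groups, and between -0.0554 and 0.133 across cell types, so a shared number did not go with shared deviations in every pair of groups. With the replicate block over all 8 arrays limma called 1 and 3 features and 0 differences between cell types (1126 at an unadjusted p under 0.05), with Etv2 at an adjusted p of 0.447. With the block and KSL arrays alone it called 0 and 0 (2697 at an unadjusted p under 0.05). List medians kept their sign in all 12 alternatives for the B lineage (0.55 to 1.63), stem cell regulators (-0.69 to -0.38), Hox genes (-0.99 to -0.34), imprinted genes (-0.81 to -0.14), the Ifi200 family (0.64 to 1.24), proliferation (0.21 to 0.33) and endothelial junction proteins (0.22 to 1.34). Those of mature neutrophil genes (-3.37 to 0.29), megakaryocyte genes (-0.48 to 0.91) endothelial receptors (-0.06 to 0.67) and endothelial transcription factors (-1.01 to 0.03) changed sign without Vav-Etv2 array 1. The causes were not tested.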
